A study of Mus musculus with 6 samples.

Results

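The TGF-beta ligands, receptors and feedback targets are 9 genes, chosen by symbol: the ligand genes Tgfb1, Tgfb2 and Tgfb3, the receptor genes Tgfbr1, Tgfbr2 and Tgfbr3, and the downstream genes Smad3, Smad7 and Pmepa1. Each matched 1 row of the deposited table of 52636 genes, and all 9 passed the filter on low values, as did 12279 genes in all. The measurements came from RNA sequencing of the mouse colon tumour line MC38, with 3 libraries of the genotype M1E5 Zfx F5 and 3 of the genotype M1E5 WT. Both groups carry the name M1E5, which the labels do not explain, had no treatment and grew in RPMI-1640 medium with fetal bovine serum. Zfx, a zinc finger transcription factor gene, was targeted in the Zfx F5 line with transfected CRISPR ribonucleoprotein, and the submitters report a PCR check of the deletion. The title of the series speaks of clones and F5 is the single edited line here, so an effect of the edit and a difference of that line from WT cannot be told apart. Whether the 3 libraries of a genotype stem from separate cultures is not stated, and p-values here rest on a spread between libraries that may be purely technical.

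TGF-beta ligands are secreted as latent dimers, wrapped in their own propeptide and tied to the matrix by latent TGF-beta binding proteins, and are released by integrins, proteases and thrombospondin. The active ligand binds the type II receptor Tgfbr2, which recruits and phosphorylates the type I receptor Tgfbr1. Tgfbr1 in turn phosphorylates Smad2 and Smad3, and these enter the nucleus with Smad4. Tgfbr3, or betaglycan, is a co-receptor without kinase activity that presents ligand, above all the Tgfb2 product. Smad7 and Pmepa1 are switched on by the pathway and restrain it. In the colon the pathway limits epithelial growth, human colorectal tumours often carry mutations of TGFBR2, and TGF-beta made in tumours is known to hold back T cells.

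The libraries held 19759240 to 22748777 reads in the Zfx F5 group and 18876673 to 24241864 reads in WT. Zfx itself was higher in the libraries labelled Zfx F5, at 125, 129 and 122 counts per 1000000 reads (CPM), against 64.4, 69.7 and 68.9 CPM in WT (limma adjusted p = 3.47e-18), so its level did not check the labels. Whole-gene values do not show whether a part of a gene is missing. Markers of the labelled epithelial tumour cell were scarce: of 14 epithelial markers 1 was kept, and 6 were at 0 in all libraries, among them Epcam and Krt19. Their summed level was 4.40 to 4.92 CPM in Zfx F5 and 1.27 to 1.98 CPM in WT. Of 11 fibroblast markers 6 were kept, with a summed level of 3422 to 3549 CPM in Zfx F5 and 1255 to 1287 CPM in WT that consisted mostly of the collagen gene Col3a1, while Thy1 was at 0 in all libraries. Of 10 endothelial markers 2 were kept (33.9 to 39.1 CPM summed in Zfx F5 and 12.9 to 13.9 CPM in WT) and Kdr was at 0. Of 12 myeloid markers 3 were kept (25.7 to 27.8 CPM in Zfx F5 and 11.1 to 13.6 CPM in WT) and Adgre1 was at 0. Lyz2 alone carried the myeloid difference, at 15.3 ± 0.905 CPM in Zfx F5 and 0.437 ± 0.205 CPM in WT, while Cd68 and Cd14 did not pass. The T, NK and B cell markers summed to at most 0.425 CPM. The part of these markers in the results below was not tested.

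The 9 genes moved in different directions. In the libraries labelled Zfx F5, Tgfb1 and Tgfbr2 rose, Tgfb2, Tgfb3, Tgfbr1, Tgfbr3, Smad3 and Pmepa1 fell, and Smad7 did not pass the test. Differences are log2 values of Zfx F5 minus WT from limma, with Benjamini-Hochberg adjustment over all 12279 kept genes and a threshold of 0.05. That makes 2 members higher and 6 lower, 8 of 9 in all. Differences were common in these libraries: 72.9% of all kept genes passed, 37.0% higher and 35.9% lower. Of the members 88.9% were called, 22.2% higher and 66.7% lower. With 9 members, chosen with earlier results of these data known, these shares were not tested against the background. What is described here is the size and direction of each member. The median difference over the members was -0.49, against 0.02 over all kept genes. The groups did not overlap for 8 members, as for 74.3% of kept genes. Past the threshold with a difference of at least 1 log2 unit were 3 members, Tgfbr2, Tgfb3 and Pmepa1, as were 10.1% of kept genes. The exact 2-sided permutation p was 0.1 for each of the 8 non-overlapping members, which is the smallest value that 3 libraries against 3 allow. In these bulk libraries, fewer cells expressing a gene and less RNA per cell cannot be told apart.

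**Figure D1:**
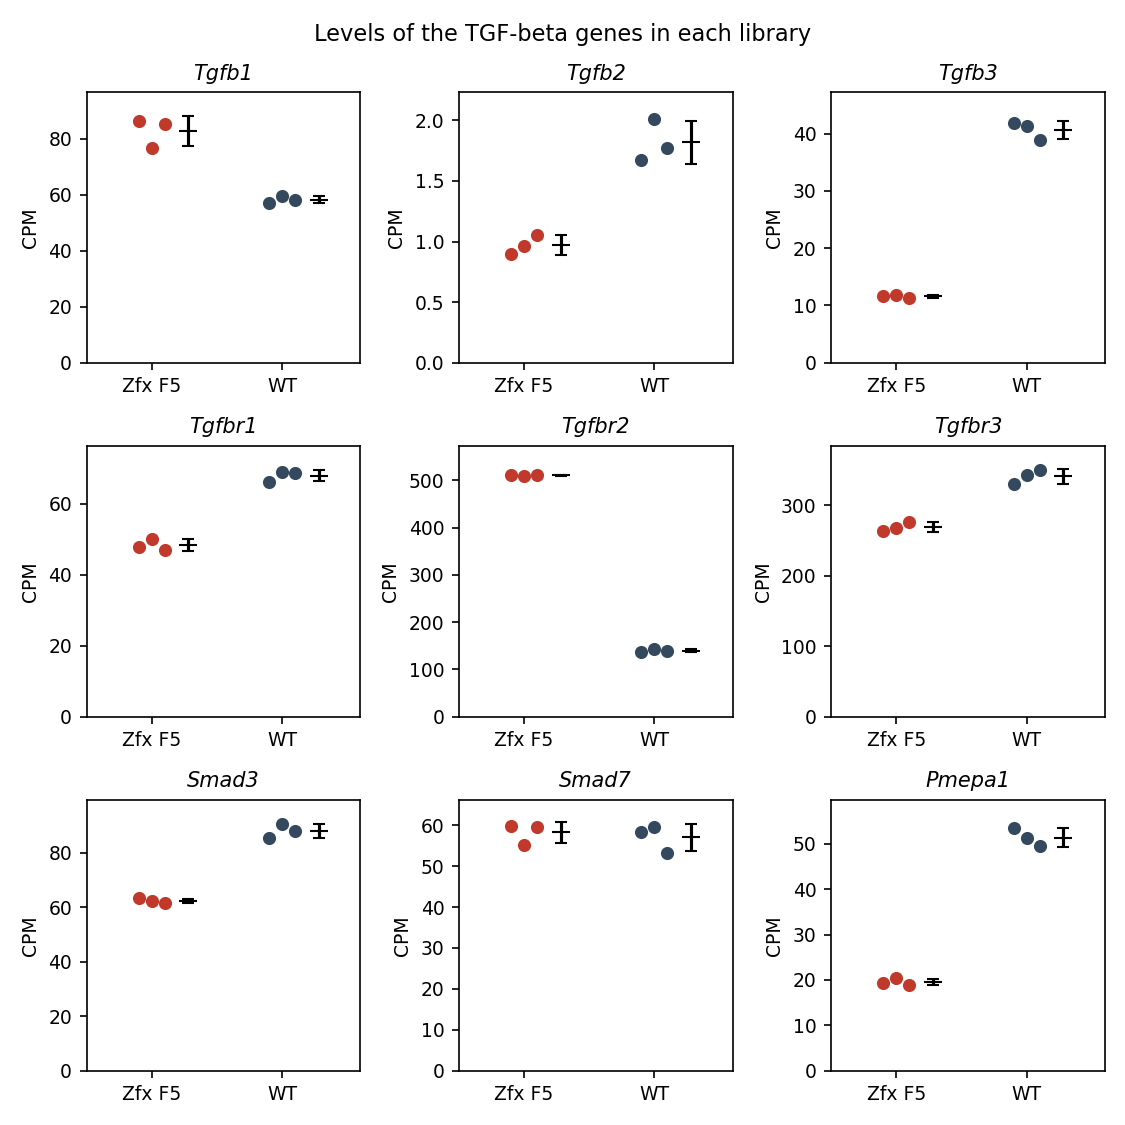
Level of each of the 9 genes in CPM in the 3 Zfx F5 libraries (red) and the 3 WT libraries (dark blue). Points are libraries and the bars beside them show the mean ± SD. Tgfbr2 was near 511 CPM in every Zfx F5 library and at most 144 CPM in WT, and only the Smad7 points overlap.

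The starting regions of 5 of the 9 genes (Tgfb1, Tgfb2, Tgfbr1, Tgfbr2 and Smad3) were found in RefSeq's promoter sequences for GRCm38.p6, which has the coordinates of mm10, and those of Tgfb3, Tgfbr3, Smad7 and Pmepa1 were not. The 250 bases before the start of both genes that rose, Tgfbr2 and Tgfb1, and of 2 genes that fell, Tgfbr1 and Smad3, are shown to set the regions of oppositely moving genes side by side. Each is read 5′ to 3′ on the gene's own strand, and capitals mark every match, on either strand, to the GC box GGGCGG, which Sp family factors bind, or to the Smad-binding letters CAGAC. A palindromic core reported for ZFX, AGGCCT, was also searched and matched none of them.
Tgfbr2, chr9:116175364-116175613, minus strand: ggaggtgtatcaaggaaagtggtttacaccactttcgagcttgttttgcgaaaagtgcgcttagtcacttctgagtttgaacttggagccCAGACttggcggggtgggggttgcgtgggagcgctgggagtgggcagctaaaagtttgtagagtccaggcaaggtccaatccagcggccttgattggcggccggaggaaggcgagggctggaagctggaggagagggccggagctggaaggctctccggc
Tgfb1, chr7:25686752-25687001, plus strand: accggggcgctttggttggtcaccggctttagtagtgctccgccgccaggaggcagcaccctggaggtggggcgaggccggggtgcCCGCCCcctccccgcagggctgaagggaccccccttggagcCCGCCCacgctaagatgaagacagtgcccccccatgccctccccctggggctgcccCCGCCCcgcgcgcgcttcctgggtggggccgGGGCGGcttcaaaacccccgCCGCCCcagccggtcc
Tgfbr1, chr4:47352972-47353221, plus strand: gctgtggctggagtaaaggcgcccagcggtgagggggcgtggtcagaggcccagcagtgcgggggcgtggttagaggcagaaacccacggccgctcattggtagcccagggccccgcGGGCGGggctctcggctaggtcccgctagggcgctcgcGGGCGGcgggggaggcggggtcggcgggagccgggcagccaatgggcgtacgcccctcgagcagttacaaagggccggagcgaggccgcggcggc
Smad3, chr9:63757995-63758244, minus strand: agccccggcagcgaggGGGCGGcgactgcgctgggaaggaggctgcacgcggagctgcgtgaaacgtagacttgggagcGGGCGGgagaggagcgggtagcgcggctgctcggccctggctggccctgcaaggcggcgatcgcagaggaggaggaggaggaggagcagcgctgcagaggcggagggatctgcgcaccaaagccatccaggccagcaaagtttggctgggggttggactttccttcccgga
The Tgfbr2 region held 1 CAGAC match, which begins at base -160 counted from the start, and no GC box, with a GC content of 58.4%. The Tgfb1 region held 5 GC boxes and was 75.2% GC, the Tgfbr1 region held 2 and was 74.8% GC, and the Smad3 region held 2 and was 69.2% GC. A second Tgfbr1 start in the same source had 1 CAGAC match and no GC box (52.8% GC), and the Tgfb2 region, of another gene that fell, had 2 CAGAC matches and no GC box. The matches thus did not separate the genes that rose from those that fell. Among 32851 promoter regions of the same length, 32.7% held a GC box, 42.2% CAGAC and 8.70% AGGCCT. Such matches describe letters in a window and say nothing of binding.

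Among the ligands, Tgfb1 became more and Tgfb3 less abundant. Tgfb1 (chromosome 7, 25687002 to 25705077, plus strand, mm10), the main ligand of most tissues, measured 86.3, 76.6 and 85.1 CPM in the Zfx F5 libraries, against 57.1, 59.7 and 58.0 CPM in WT. Every Zfx F5 library lay above every WT library, with 1126 to 1937 reads behind each value. The difference was 0.50 (SE 0.047, limma adjusted p = 5.36e-11), or 1.42-fold higher. Tgfb3 (chromosome 12, 86056745 to 86079041, minus strand) measured 11.6, 11.8 and 11.3 CPM in Zfx F5 and 41.8, 41.3 and 38.9 CPM in WT. It fell by 1.81 on the log2 scale (SE 0.066, limma adjusted p = 5.72e-21), or 3.51-fold, and 3.40% of kept genes differed by more in either direction. Tgfb3 is the ligand gene known for its part in the closing of the palate. Of its 3383 exon bases, 163 and 257 are shared with gene models on the opposite strand, Gm37804 with 0 reads in all libraries and Gm48008, and reads of such partners cannot be told apart, since the library preparation did not mark strand.

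Tgfb2 (chromosome 1, 186622792 to 186705989, minus strand), whose product depends on betaglycan for efficient receptor binding, was scarce in both groups. It measured 0.897, 0.962 and 1.05 CPM in Zfx F5, from 19 to 24 reads, and 1.67, 2.01 and 1.77 CPM in WT, from 38 to 43 reads. The groups did not overlap, and the difference of -0.88 (SE 0.23, limma adjusted p = 0.00115, 1.84-fold lower) had a 95% interval from -1.35 to -0.41, the widest of the 9 genes. With 5 CPM added before the log2, the difference of this low gene shrank to -0.19 and still passed.

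Levels per kilobase of exon show how the ligand genes stood to each other. Tgfb1 made up 91.3 ± 0.681% of the summed CPM per kilobase of the 3 ligands in Zfx F5 and 68.4 ± 0.90% in WT (SD, n = 3 each). The share of Tgfb3 was 8.24 ± 0.660% in Zfx F5 and 30.7 ± 0.940% in WT, and that of Tgfb2 was 0.450 ± 0.044% and 0.893 ± 0.071%. Tgfb1 thus stood 11.1 ± 0.931 times above Tgfb3 per kilobase in Zfx F5 and 2.23 ± 0.097 times in WT. The groups did not overlap for any of these shares, and the exact 2-sided permutation p was 0.1 for each, the smallest this design allows.

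**Figure D2:**
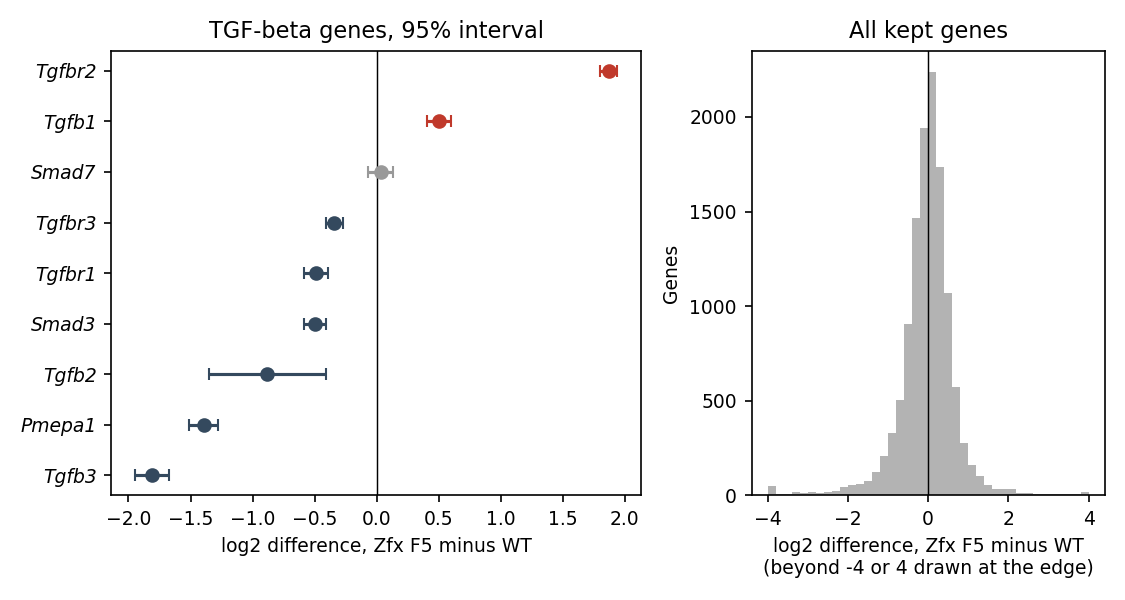
Left, log2 difference of Zfx F5 minus WT for each of the 9 genes with its 95% interval from limma, red where higher, dark blue where lower and grey where the test was not passed. Right, the number of the 12279 kept genes at each log2 difference (genes beyond -4 or 4 at the edges), which shows that Tgfbr2 and Tgfb3 lie in the tails and Smad7 near the centre.

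Among the receptors, the type II gene rose while the type I and co-receptor genes fell. Tgfbr2 (chromosome 9, 116084293 to 116175360, minus strand) measured 511, 509.7 and 511 CPM in the Zfx F5 libraries, against 137, 144 and 138 CPM in WT. The SD of the Zfx F5 libraries was 0.716 CPM (n = 3), and between 2716 and 11622 reads lay behind each value. Counting error alone at such read numbers is larger than that SD, so the SD is no measure of reproducibility. The difference was 1.87 (SE 0.032, limma adjusted p = 2.11e-29), or 3.65-fold higher, and 3.19% of kept genes differed by more. Tgfbr1 (chromosome 4, 47353222 to 47414931, plus strand), the kinase that phosphorylates Smad2 and Smad3, measured 47.7, 50.1 and 47.0 CPM in Zfx F5, against 66.1, 68.9 and 68.6 CPM in WT. Its groups did not overlap either, with a difference of -0.49 (SE 0.047, limma adjusted p = 6.92e-11), or 1.41-fold lower. Tgfbr3 (chromosome 5, 107106570 to 107289629, minus strand) measured 263, 268 and 276 CPM in Zfx F5, against 329.5, 343 and 349 CPM in WT. It fell by 0.34 on the log2 scale (SE 0.033, limma adjusted p = 1.06e-10), or 1.27-fold, the smallest fall among the 6 lower genes. A same-strand gene model, Gm43422, covers 297 of its 6087 exon bases and had 22 to 36 reads per library.

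The balance of the receptor genes turned round. Per kilobase of exon, Tgfbr2 made up 54.7 ± 0.515% of the summed level of the 3 receptors in Zfx F5 and 20.4 ± 0.469% in WT (SD, n = 3 each). Tgfbr3 made up 38.7 ± 0.633% in Zfx F5 and 66.9 ± 0.528% in WT. The share of Tgfbr1 was 6.60 ± 0.242% in Zfx F5 and 12.7 ± 0.060% in WT. Tgfbr2 stood 8.29 ± 0.285 times above Tgfbr1 in Zfx F5 and 1.61 ± 0.030 times in WT, while Tgfbr3 stood at 0.708 ± 0.018 of the Tgfbr2 level in Zfx F5 and 3.28 ± 0.102 times above it in WT. The exact 2-sided permutation p was 0.1 for each share and ratio. These are ratios of RNA and say nothing of receptor protein at the surface.

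**Figure D3:**
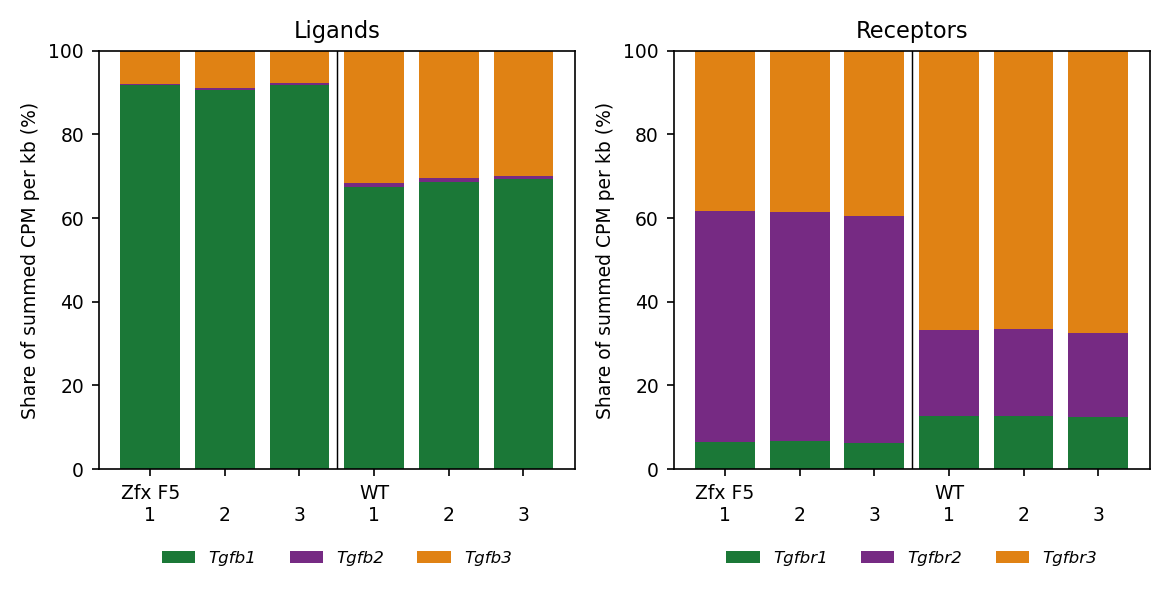
Share of each gene in the summed CPM per kilobase of exon of the 3 ligand genes (left) and the 3 receptor genes (right), one bar per library, Zfx F5 libraries left of the line and WT libraries right of it. Tgfb1 filled about 91% of the ligand bars in Zfx F5 and 68% in WT, and Tgfbr2 about 55% of the receptor bars in Zfx F5 and 20% in WT.

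Downstream of the receptors, the signal carrier Smad3 and the inhibitor gene Pmepa1 fell, while the other inhibitor gene, Smad7, did not pass the test. Smad3 (chromosome 9, 63646767 to 63757994, minus strand) measured 63.3, 62.2 and 61.7 CPM in Zfx F5, against 85.6, 90.6 and 87.9 CPM in WT. The groups stood clear of each other, with a difference of -0.50 (SE 0.043, limma adjusted p = 7.02e-12), or 1.41-fold lower. Pmepa1 (chromosome 2, 173224458 to 173276533, minus strand), whose membrane protein binds Smad2 and Smad3 and keeps them from the receptor, measured 19.3, 20.3 and 18.9 CPM in Zfx F5, against 53.5, 51.3 and 49.5 CPM in WT. It fell by 1.39 on the log2 scale (SE 0.058, limma adjusted p = 1.65e-19), or 2.63-fold, with 402 to 1251 reads behind each value. Smad7 (chromosome 18, 75367529 to 75395935, plus strand), whose protein blocks the type I receptor and brings ubiquitin ligases to it, measured 59.9, 55.3 and 59.7 CPM in Zfx F5, against 58.3, 59.5 and 53.2 CPM in WT. The groups overlapped, and the difference was 0.03 (SE 0.050, 95% interval -0.07 to 0.14, limma adjusted p = 0.576). The 2 feedback genes therefore differed in outcome, with intervals of -1.51 to -1.28 for Pmepa1 and -0.07 to 0.14 for Smad7 that do not meet.

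Compared per kilobase of exon, the order of the 9 genes was not the same in both groups. In Zfx F5 the order was Tgfbr2 (62.4 ± 0.087 CPM per kilobase, SD, n = 3), Tgfbr3 (44.2 ± 1.12), Tgfb1 (38.0 ± 2.45), Smad7 (13.3 ± 0.597), Smad3 (12.3 ± 0.157), Tgfbr1 (7.53 ± 0.253), Pmepa1 (4.31 ± 0.159), Tgfb3 (3.42 ± 0.081) and Tgfb2 (0.187 ± 0.015). In that group no neighbours overlapped in their 3 libraries. In WT the order was Tgfbr3 (56.0 ± 1.68), Tgfb1 (26.8 ± 0.598), Smad3 (17.3 ± 0.491), Tgfbr2 (17.1 ± 0.437), Smad7 (13.0 ± 0.766), Tgfb3 (12.0 ± 0.457), Pmepa1 (11.3 ± 0.451), Tgfbr1 (10.6 ± 0.242) and Tgfb2 (0.350 ± 0.034). There the neighbours Smad3 and Tgfbr2, Smad7 and Tgfb3, and Tgfb3 and Pmepa1 overlapped. Tgfbr2 therefore held rank 1 in Zfx F5 and rank 4 in WT, and Tgfb3 rank 8 in Zfx F5 and rank 6 in WT, while Tgfb2 came last in both. These ranks depend on the division by length. In CPM, Tgfb3 stood below Pmepa1 and Tgfbr1 in both groups, at 40.7 against 51.4 and 67.9 CPM in WT. Tgfbr2 stood above Smad3 and Tgfb1 in WT, at 139.8 against 88.0 and 58.2 CPM.

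**Figure D4:**
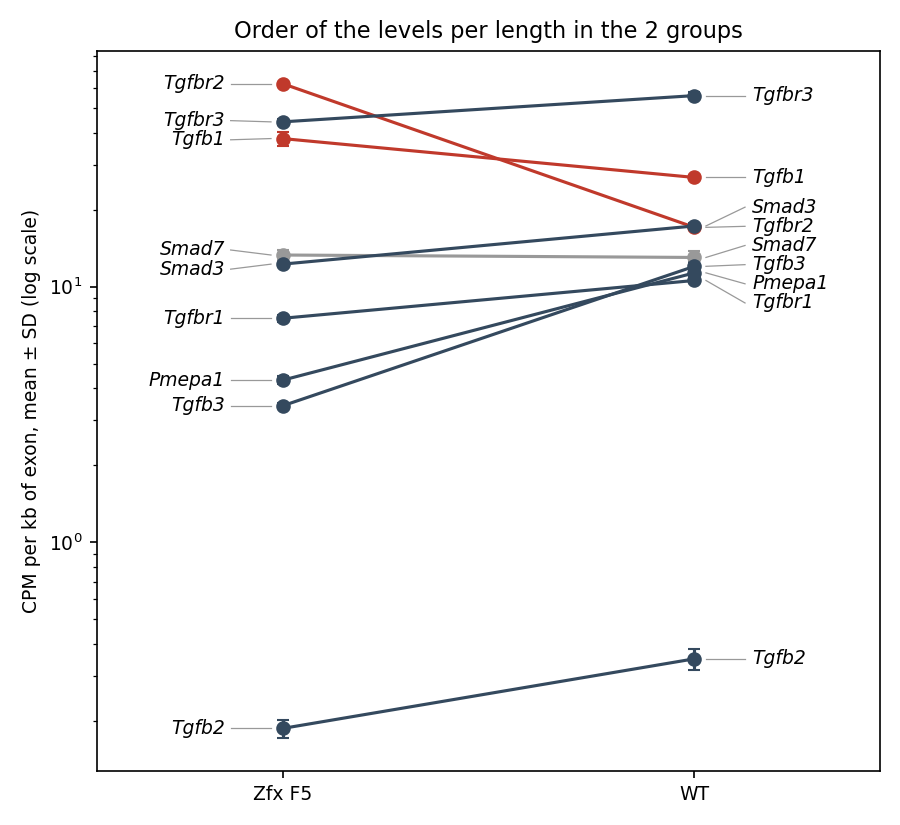
Mean CPM per kilobase of exon of each gene in Zfx F5 (left) and WT (right) on a log scale, with SD over 3 libraries; red lines are genes higher in Zfx F5, dark blue lines lower, grey not past the test. Tgfbr2 is at the top in Zfx F5 and at rank 4 in WT, and Tgfb2 is far below the others in both.

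The genes most like the member with the largest rise and the one with the largest fall were found by the root mean square distance between 6-library log2 profiles, each taken relative to its own WT mean. For Tgfbr2 the closest kept genes were Lgmn (distance 0.037), Col3a1 (0.050) and Fstl1 (0.053), with differences of 1.89, 1.93 and 1.94. They encode the lysosomal protease legumain, a fibrillar collagen chain and a secreted follistatin-like glycoprotein. For Tgfb3 they were Lrrc41 (0.022), Stac2 (0.031) and Ank (0.044), with differences of -1.80, -1.80 and -1.83. With 2 groups of near-constant libraries this distance mostly measures equal difference between the groups.

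Other genes of the pathway were read from 6 lists that together held 84 genes, of which 63 were kept. Their counts stand against the background in which 72.9% of all kept genes passed, 37.0% higher and 35.9% lower, and no list was tested as a whole. Of 14 genes that store and release the ligands 9 were kept and all 9 passed, 8 lower (88.9%) and 1 higher (11.1%), with a median difference of -0.86 against 0.02 over all kept genes. Without the filter on low values 8 were lower and 4 higher, since Lrrc32, Nrros and Itgb3, with at most 38 reads summed over a group, then passed as higher. Those counts come from the fit of 24485 genes and cannot be set against the 37.0% and 35.9% of kept genes. Itgb3 had 6 reads over the Zfx F5 libraries and 0 over WT. Its groups overlapped (exact 2-sided permutation p = 0.4), and its limma adjusted p without the filter was 0.0398. Thbs1, which encodes the latent TGF-beta activator thrombospondin-1, measured 3.92 ± 0.779 CPM in Zfx F5 and 19.5 ± 1.01 CPM in WT (SD, n = 3 each), a difference of -2.32 (SE 0.11, limma adjusted p = 8.88e-17). Furin, the protease that cuts the ligand from its propeptide, measured 63.9 ± 2.29 CPM in Zfx F5 and 203 ± 13.7 CPM in WT (-1.67, SE 0.044, limma adjusted p = 3.23e-23). The latent TGF-beta binding protein genes fell together: Ltbp1 by 1.51 (SE 0.038), Ltbp3 by 1.22 (SE 0.040) and Ltbp4 by 0.86 (SE 0.062) on the log2 scale. Ltbp1 measured 77.5 ± 2.02 CPM in Zfx F5 and 221 ± 7.60 CPM in WT, and Ltbp2 had at most 2 reads in a library. The higher gene among the 9 kept was Itgb8, chosen after its values were seen, a subunit of an integrin that activates latent ligand, which rose by 0.54 (SE 0.063, limma adjusted p = 5.87e-09).

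Of 10 genes for co-receptors, activin type receptors and traps, 8 were kept, 4 rose, 1 fell and 3 did not pass (median difference 0.33), so that 62.5% were called, against 72.9% of all kept genes. Vasn, which encodes vasorin, a membrane protein that traps TGF-beta, measured 261 ± 9.38 CPM in Zfx F5 and 106 ± 7.59 CPM in WT, a difference of 1.30 (SE 0.044, limma adjusted p = 1.33e-17). Bambi, a pseudoreceptor gene, was low at 3.44 ± 0.741 CPM in Zfx F5 and 1.26 ± 0.163 CPM in WT (1.41, SE 0.20, limma adjusted p = 2.40e-07). Nrp1, a neuropilin gene whose product also binds TGF-beta, rose by 0.96 (SE 0.068) and the activin type I receptor gene Acvr1b by 0.45 (SE 0.076), whereas the activin type II receptor gene Acvr2a fell by 0.58 (SE 0.051). Acvr2b (0.06, SE 0.094) and Cd109 (0.22, SE 0.14) did not pass.

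Of 11 genes for Smad partners and receptor adaptors 10 were kept, of which 8 fell (80.0%, against 35.9% of all kept genes), 1 rose and 1 did not pass (median difference -0.31), and none of them differed by as much as 1 log2 unit. Under the alternatives, and with any library left out, 7 or 8 genes of this list fell. Tgfbrap1, a receptor-associated adaptor gene, fell by 0.70 (SE 0.052), Trim33, which encodes a Smad4-binding ubiquitin ligase, by 0.54 (SE 0.039), Zfyve9, which encodes the Smad anchor SARA, by 0.48 (SE 0.047) and Traf6 by 0.47 (SE 0.046). Smad4, the shared partner of the receptor-activated Smads, measured 113 ± 1.19 CPM in Zfx F5 and 149.7 ± 2.06 CPM in WT, a difference of -0.40 (SE 0.036, limma adjusted p = 1.99e-11). The kinase gene Map3k7, which carries a branch of the signal outside the Smads, measured 100.9 ± 0.956 CPM in Zfx F5 and 102 ± 1.46 CPM in WT and did not pass (-0.02, SE 0.038).

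Of 16 Smad corepressor and turnover genes, 8 were higher (50.0%, against 37.0% of all kept genes), 6 lower (37.5%, against 35.9%) and 2 not past the test (median difference 0.07). The higher count depended on the processing, at 6 to 10 under the alternatives and 6 to 8 with any library left out. The lower count was 5 or 6. Ldlrad4, whose product sequesters Smad2 and Smad3 in the manner of Pmepa1, measured 22.5 ± 0.243 CPM in Zfx F5 and 6.95 ± 0.935 CPM in WT, a difference of 1.70 (SE 0.091, limma adjusted p = 8.32e-17). It moved against its relative Pmepa1. Smad6, an inhibitory Smad gene acting mainly on the BMP branch, rose by 1.55 (SE 0.22) and was low in both groups, at 3.04 ± 0.571 CPM in Zfx F5 and 1.02 ± 0.232 CPM in WT. Usp11, a deubiquitinase gene, rose by 1.47 (SE 0.21). The ubiquitin ligase genes Smurf2, whose product works with Smad7 on the receptor, and Nedd4l fell by 1.00 (SE 0.038) and 0.85 (SE 0.055). Wwp1 (0.06, SE 0.040) and Rnf111 (0.04, SE 0.042) did not pass.

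Of 24 known TGF-beta target genes 17 were kept, of which 9 rose (52.9%, against 37.0% of all kept genes), 6 fell (35.3%, against 35.9%) and 2 did not pass (median difference 0.23). By at least 1 log2 unit 4 rose and 2 fell. The higher count was 8 to 13 under the alternatives and 8 to 10 with any library left out. The lower count was 5 or 6 under the alternatives and 4 to 6 with any library left out. Without the filter 13 were higher and 5 lower, as Ctgf, Col1a1, Col1a2 and Junb then passed as higher. These 2 counts come from the fit of 24485 genes and cannot be set against the 37.0% and 35.9% of kept genes. Lox, the collagen cross-linking enzyme gene, measured 184 ± 1.09 CPM in Zfx F5 and 10.3 ± 1.12 CPM in WT (4.16, SE 0.062, limma adjusted p = 1.36e-25). The metalloproteinase inhibitor gene Timp3 rose by 3.39 (SE 0.050). Fn1 (fibronectin) rose by 2.03 (SE 0.075). Against these, the transcription factor gene Snai2 fell to 3.05 ± 0.434 CPM in Zfx F5, against 30.7 ± 0.423 CPM in WT (-3.33, SE 0.10, limma adjusted p = 5.06e-23), and Tgfbi, a matrix adhesion gene named for its induction by TGF-beta and chosen here after its values were seen, fell by 1.98 (SE 0.095). Junb (0.28, SE 0.11, limma adjusted p = 0.0575) and Spsb1 (-0.01, SE 0.047) did not pass. These targets respond to other signals as well, and fibroblast marker genes moved beside them in both directions, with Col3a1 at 3334 ± 68.4 CPM in Zfx F5 and 874 ± 21.3 CPM in WT and Pdgfra, chosen after its values were seen, at 78.6 ± 2.00 CPM in Zfx F5 and 247 ± 7.21 CPM in WT.

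Among 9 genes for activin ligands and antagonists 3 were kept, and all 3 fell, too few to set against the background share. Fstl3, a secreted activin antagonist gene, fell by 0.86 (SE 0.045), Inhba, which encodes the activin A subunit, by 0.54 (SE 0.034), and Gdf11 by 0.15 (SE 0.057, limma adjusted p = 0.0200). Inhba measured 209 ± 1.81 CPM in Zfx F5 and 305 ± 10.8 CPM in WT. Inhbb, Mstn, Nodal and Fst had 0 reads in all libraries. The Gdf11 call was lost with median centring, with quantile normalization and without Zfx F5 replicate 1 or WT replicate 1 (limma adjusted p of 0.0556, 0.0740, 0.10 and 0.0919).

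**Figure D5:**
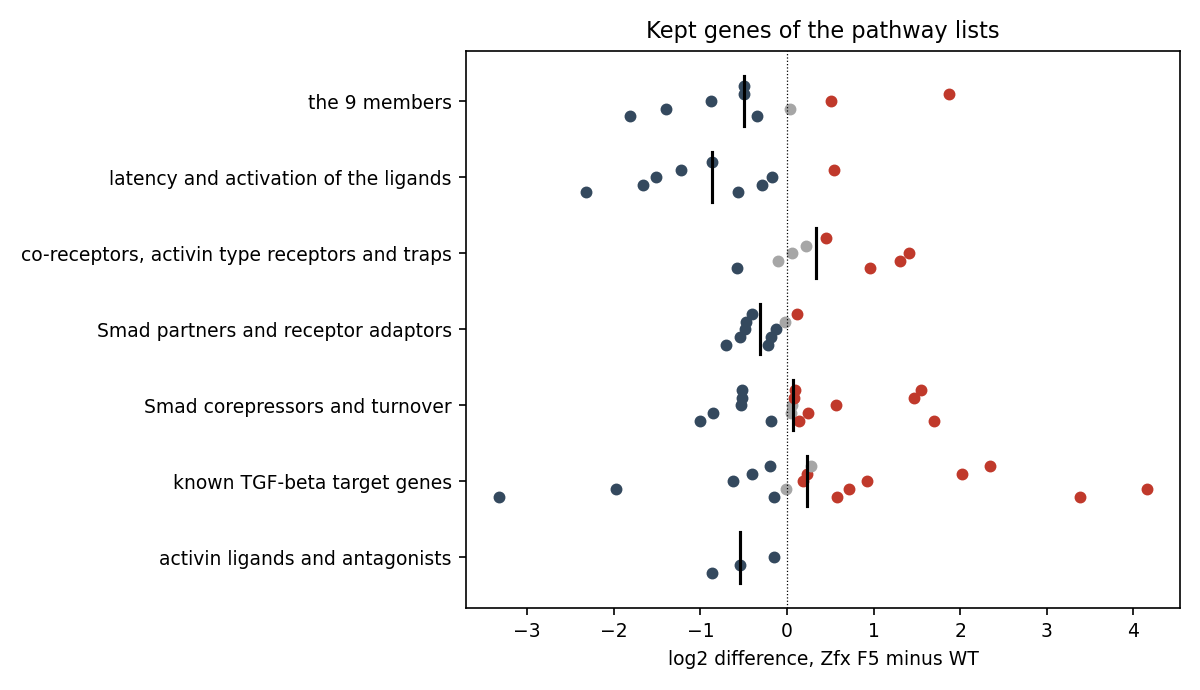
Log2 difference of Zfx F5 minus WT for each kept gene of the 9 members and of 6 further lists of the pathway, one point per gene, red where higher, dark blue where lower and grey where the test was not passed; vertical black bars are list medians. The genes for latency and activation lie to the left of 0 with 1 exception, and the target genes spread from -3.33 to 4.16.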

How the data were processed

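Gene expression was taken from 1 table that the authors deposited, whose log2 values for 52636 genes in 6 libraries are called normalized in its own name; no aligner, counting program or normalization method is named there (not given in the sources used here). Per the submitters' processing notes the builds were mm10 and GRCh38, and per the labels' protocols reads were 50 bases, single-end, from Nextera XT libraries, which do not mark strand. The labels differ on the RNA source: the design text speaks of cultured cells, the extract protocol of sorted tumour cells. The name of the deposited values holds the words in vitro. All 6 columns share a lowest value of -4.82. With the log2 undone and the floor removed, a column adds up to 1000000, so the deposited log2 values are log2(CPM + 0.0353). Low CPM values were whole multiples of 1 read (100% of values up to 300 reads, within 0.05 read), which gave 18876673 to 24241864 reads per library. A count of 0 allows up to 3 reads, or 0.124 to 0.159 CPM per library, counting error only. Within a group, every pair of libraries differed beyond sampling noise (chi-square per degree of freedom 2.17 to 3.94 over genes, against 85.0 to 102 between groups). Such a spread cannot tell separate cultures from separate libraries of the same culture. Each library was entered in the tests as its own sample.

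The 12279 genes whose log2 values averaged 0 or more across all 6 libraries were compared with limma 3.58.1 in R 4.3.3: a linear model of group, variance trend, robust moderation, 2-sided tests, Benjamini-Hochberg adjustment over all kept genes at 0.05. Fold changes are on the log2(CPM + 0.0353) scale and understate low genes. Levels per kilobase divide CPM by the deposited exon length. Positions come from GENCODE M21 (mm10). The members and lists were chosen with earlier results of these data known. The rule names all members, up to 5 called genes of each list by size of difference and up to 2 uncalled by level; others are marked where they appear. A gene that this rule names among the known targets is not reported here. Columns of 0 unmapped samples were left unused.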

Additional observations from a re-analysis of the deposited data

How the results depend on the processing

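Of the 9 members, 8 kept their direction and their side of the threshold under every alternative that tested them; Tgfb2 was not tested under the filter at a mean log2 value of 2, which left 5 lower members. Smad7 passed under none (limma adjusted p 0.0877 to 0.984, differences of -0.02 to 0.09), the lowest with quantile normalization. The alternatives were TMM scaling, median centring, quantile normalization, no filter, the stricter filter, 1 or 5 CPM added, no trend or robust moderation, array weights, each library left out, and limma voom on recovered reads, which was chosen after seeing the data. Scaling moved the median of all genes tested to between -0.01 and 0.05, against 0.02. Without a filter 4 genes of the latency list were higher instead of 1, and 2 Smad partner genes instead of 1, because genes with few reads entered. Without division by length, the shares differed by 28.97, -0.783 and -28.2 percentage points for Tgfb1, Tgfb2 and Tgfb3, against 22.9, -0.443 and -22.5, and by -6.54, 36.2 and -29.6 for Tgfbr1, Tgfbr2 and Tgfbr3, against -6.05, 34.3 and -28.2. Junb passed with median centring, quantile normalization, no filter, and without Zfx F5 replicate 2 or WT replicate 2 (limma adjusted p 4.24e-08 to 0.0452). Wwp1 and Rnf111 passed with quantile normalization (0.00275 and 0.0139). edgeR and DESeq2 were planned and not run, and limma voom on the recovered reads was used in their place. No paired analysis was possible because the labels give no replicate numbers that pair libraries across the groups. Depth limits Tgfb2, with 19 to 43 reads per library.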

Other observations

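Of the 84 further pathway genes, 21 lay under the filter on low values, and several of these had more reads in the Zfx F5 libraries. They are given here as values, chosen after they were seen, with the adjusted p from limma without a filter. For the members other than Tgfb2 and Smad7, that fit gave smaller adjusted p than the filtered fit. For Tgfb3 the limma adjusted p was 2.28e-131 without a filter and 5.72e-21 with it. The p-values of this paragraph are therefore not comparable with those of the filtered fit. The collagen gene Col1a2 had 249 reads over the Zfx F5 libraries and 6 over WT (adjusted p = 8.74e-49), and Col1a1 had 60 and 12 (adjusted p = 5.53e-08). Ctgf, the connective tissue growth factor gene and a target of both TGF-beta and YAP, had 141 reads in Zfx F5 and 17 in WT (adjusted p = 1.25e-19). The latent TGF-beta tethering genes Lrrc32 and Nrros, known from regulatory T cells and myeloid cells, had 38 and 37 reads in Zfx F5 and 11 and 7 in WT (adjusted p = 0.000241 and 2.48e-06). Acvrl1, a type I receptor gene typical of endothelium, had 28 reads in Zfx F5 and 5 in WT (adjusted p = 1.04e-05). Genes that define contractile myofibroblasts, Acta2 and Tagln, had 7 and 8 reads in Zfx F5 and 9 and 3 in WT, and did not pass.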
